A study of Gallus gallus with 2 samples.

Results

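The chromatin described here lies beyond the centromeric HoxD landscape (C-DOM) on chick chromosome 7, at 16980 to 17870 kb of assembly galGal5, up to the end of the captured interval. It was chosen as the stretch that holds the domains past C-DOM, and it makes up 178 of the 585 5-kb bins of the capture region. These bins form 15931 bin pairs inside the segment and 20826 bin pairs with the 117 bins of the C-DOM side (16395 to 16980 kb), of 171405 bin pairs in all. The positions of domains and borders were known from the same matrices when the segment was chosen, so they are given as a description with no test. Contacts were measured by capture Hi-C (CHi-C), in which fragments of crosslinked chromatin are ligated to their spatial neighbours and the ligated products of 1 locus are enriched with probes and sequenced from both ends. The study asked whether contacts around HoxD differ between limbs. There was 1 library from whole hindlimb buds and 1 library from whole forelimb buds, both of wild type White Leghorn embryos at Hamburger-Hamilton stage HH20 (HL and FL hereafter). How many embryos gave buds to a library is not given in the sources used here and there was no replicate, so the spread between embryos could not be estimated. Every interval below is an exact 95% interval that covers counting error only. Each library was read on 4 sequencing lanes, which repeat the sequencing and not the biology.

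Chromosomes fold into topologically associating domains (TADs), stretches in which loci meet each other more often than loci outside. Borders between TADs are often bound by CTCF, an architectural protein that stalls the extrusion of chromatin loops, and a border can hold enhancers and genes of neighbouring domains apart. C-DOM is the TAD whose enhancers drive Hoxd genes in the forming digits. In buds of mixed cells, a contact made in fewer cells and a contact made less often per cell cannot be told apart.

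The capture region held 3221107 read pairs in HL and 3096681 read pairs in FL. Of these, 732150 (22.7%) in HL and 693351 (22.4%) in FL had both mates inside the segment. A further 234894 read pairs (7.29%) in HL and 240034 (7.75%) in FL joined the segment to the C-DOM side. The median segment bin carried 10734 read pairs in HL and 10241 in FL, against 11370 in HL and 11067 in FL in the other bins. After the balancing by the authors 165 bins had a value in both libraries, and the same 13 bins were masked in both. The longest masked run was 17615 to 17645 kb (6 bins), where only 2.50 restriction fragments per bin were seen in HL and 2.33 in FL, against medians of 11 in HL and 10 in FL in unmasked bins of the segment. Single masked bins or short runs stood next to borders or weak minima, at 17020 to 17035 kb, at 17155 to 17160 kb and at 17380 to 17385 kb. Other single masked bins lay away from them, at 17275 to 17280 kb and at 17425 to 17430 kb.

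Borders were read from the insulation score, the log2 of the mean balanced contact in a 100-kb square across a bin edge over the mean of all edges, so that a low score marks an edge few contacts cross. A border was the lowest edge within 50 kb with a prominence (depth below the higher score around it) of at least 0.2. Both libraries had such borders at 17000 kb and at 17385 kb. The border at 17000 kb was the deeper one, with a score of -0.98 in HL and -0.94 in FL and a prominence of 1.17 in HL and 1.08 in FL. It was the second-lowest minimum of the whole capture region in each library, after the one at the HoxD cluster at 16385 kb (-1.26 in HL, -1.23 in FL). Its square held 13572 read pairs in HL and 13186 in FL. The border at 17385 kb scored -0.48 in HL and -0.43 in FL, with a prominence of 0.68 in HL and 0.61 in FL, and 10.4% of the edges in HL and 14.3% in FL scored lower. It was thus less deep than the border at 16690 kb (-0.55 in HL, -0.57 in FL), more so in FL than in HL. That border lies near the outer end of C-DOM as the study limited it.

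**Figure D1:**
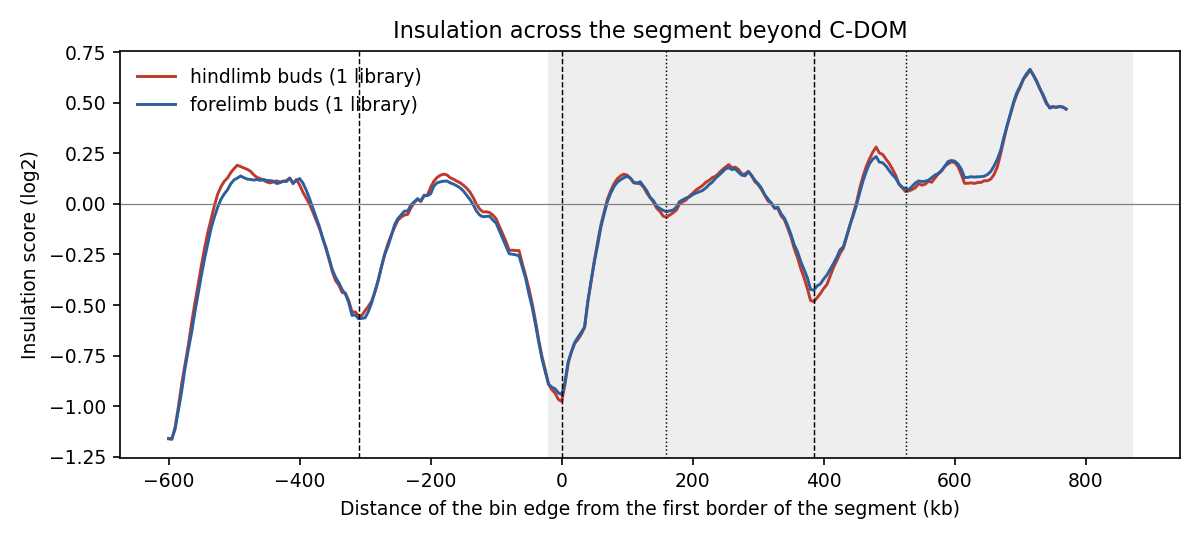
Insulation score (y axis, log2) of each bin edge against its distance from the border at 17000 kb (x axis, kb) in hindlimb and forelimb buds, 1 library each, with the segment shaded. Dashed lines mark borders called in both libraries and dotted lines the weaker minima 160 and 525 kb beyond the first border; the curves of both tissues lie close together, with minima of -0.98 and -0.94 at the first border.

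Weaker minima lay inside the domains. At 17160 kb the score was -0.07 in HL and -0.04 in FL, with a prominence of 0.21 in HL and 0.17 in FL, so that HL alone passed the limit of 0.2. With a 50-kb square this minimum was called at 17155 kb in both libraries (prominence 0.30 in HL and 0.28 in FL), and with a 200-kb square in neither. Without 3 bins at the first border, described below, it was called in both (0.26 in HL and 0.22 in FL). By score the border near 17530 kb was weaker than the minimum at 17160 kb, though not by prominence in HL. Its minimum was at 17525 kb in HL (score 0.06, prominence 0.22) and at 17530 kb in FL (0.07 and 0.16). These scores were above the average edge in both libraries, and 51.1% of the edges in HL and 53.3% in FL were lower. At a prominence limit of 0.1, HL alone had a still weaker minimum at 17630 kb, in the long masked run (score 0.10, prominence 0.11). Whether the border near 17530 kb was called turned on the scale. With a 50-kb square it was called at 17525 kb in both libraries (prominence 0.46 in HL and 0.43 in FL), with distance-corrected values at 17545 kb in both, and with a 200-kb square in neither. The limit lay between near-equal values of both libraries here, so a call in HL alone does not show that the tissues differ.

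The position of the main borders shifted little. Over the 4 lanes the first was called at 16995 or 17000 kb and the second at 17380 or 17385 kb in each library. A 200-kb square placed the first at 16990 kb in both libraries, and division by the mean at each distance placed it at 16985 kb. TopDom, the domain caller of the study, was rewritten here after its published procedure. This version takes local minima and sets masked bins to 0, so its calls may differ from those of the original program. With the window of the study, 28 bins of 10 kb, it set borders at 16980 and 17430 kb in both libraries. With a window of 10 bins it set them at 17000 and 17380 kb in both libraries, and set a further border at 17550 kb in HL alone. The insulation score of the balanced 10-kb matrix also gave 17000 and 17380 kb in both libraries, with a further border at 17610 kb in HL alone (prominence 0.22). The raw, unbalanced matrix added a further border at 17655 kb in both libraries (prominence 0.47 in HL and 0.37 in FL), next to the long masked run.

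The borders divided the captured chromatin into domain A (17000 to 17385 kb, 385 kb long) and domain B (17385 to 17870 kb, 485 kb, whose far end is not in the capture). Domain A follows a neighbouring domain of 310 kb (16690 to 17000 kb), which is the last stretch of the C-DOM side. Except for its first few kb, this neighbouring domain lies past C-DOM as the study limited it for its contact counts. Contact was compared as observed over expected (O/E), the balanced value over the mean at the same distance in the capture region. Domain A was separated from its neighbour: their contact was 0.735 of expected in HL and 0.734 in FL (99395 and 97127 read pairs). The near part of domain A, up to the weak minimum at 17160 kb, was the most separated, at 0.582 in HL and 0.587 in FL, and the far part stood at 0.835 in HL and 0.829 in FL. Within domain A the O/E was 1.17 in HL and 1.16 in FL, and within domain B 1.22 in HL and 1.23 in FL.

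The border at 17385 kb held the domains less far apart. Around it, the far part of domain A met the first part of domain B (17385 to 17525 kb) at 0.898 of expected in HL and 0.917 in FL. The near part of domain A, in contrast, met domain B above expectation, at 1.69 in HL and 1.67 in FL, although a domain border lay between them. Across the whole of domains A and B the O/E was 1.30 in both libraries. The neighbouring domain, so depleted of contact with domain A, met domain B at 1.28 of expected in HL and 1.25 in FL. The stretch at 16395 to 16690 kb covers nearly all of C-DOM as the study limited it, and is called the HoxD-proximal part of C-DOM here. It had the same order in these values, with 0.869 of expected in HL and 0.910 in FL for domain A. For domain B it was at 1.23 in both libraries.

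**Figure D2:**
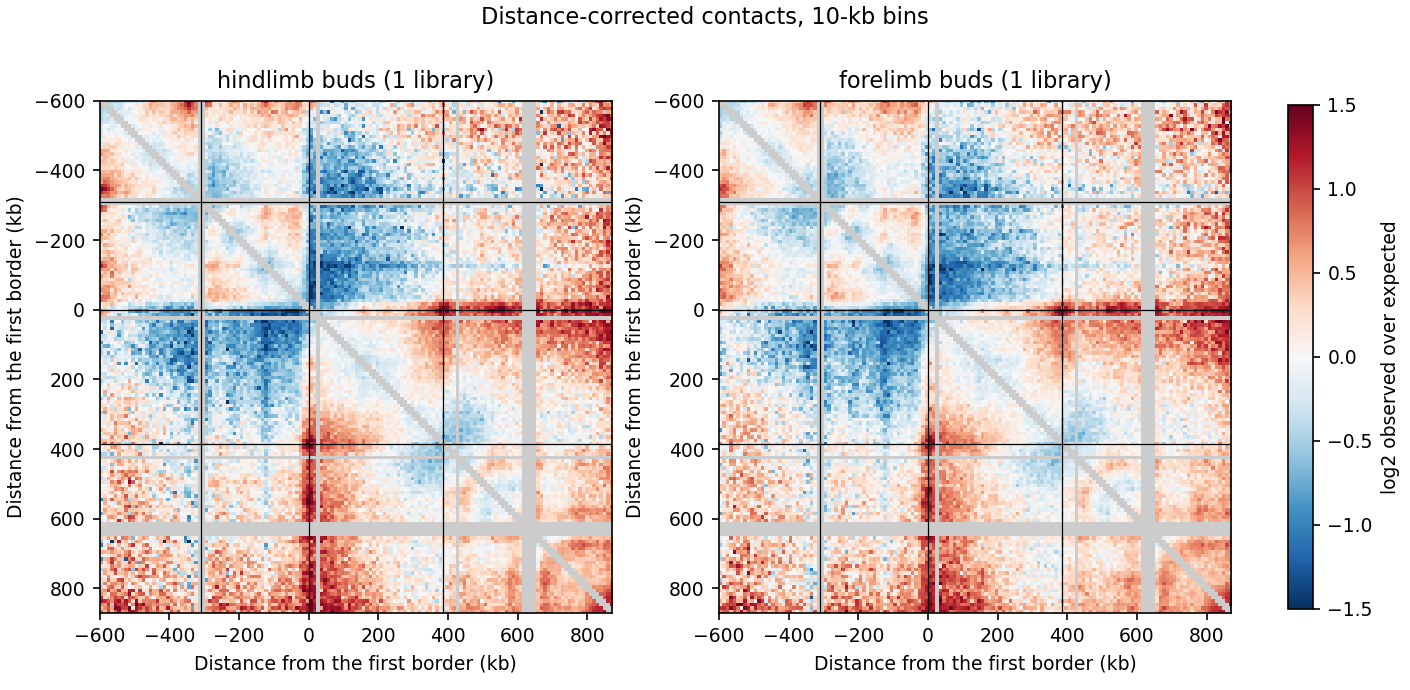
Maps of distance-corrected contact in 10-kb bins of hindlimb (left) and forelimb buds (right), 1 library each, with both axes as the distance from the border at 17000 kb (kb) and colour as log2 O/E; grey bins carry no value and lines mark the borders called in both libraries. Blue blocks show domain A depleted of contact with most of the C-DOM side, though not with its end near HoxD. A red stripe at 0 shows the border bins in contact with all of domain B, in both tissues. Contact with domain B falls off gradually over the bins next to them.

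Values in and near domain B depend on the expectation used. At 10 to 20 kb the balanced contact inside the segment exceeded that of the rest of the capture region by a log2 of 0.07 in HL and 0.08 in FL, and the excess grew with distance to 1.14 in HL and 1.12 in FL at 640 to 890 kb. In raw counts, with no balancing, the excess at that distance was 0.84 in HL and 0.85 in FL. Bins near an end of the capture have captured partners on one side only, and balancing sets their sum to that of all other bins, and what share of the excess this makes was not tested. With the expectation taken from the segment itself, contact of domain A with domain B was 0.927 of expected in HL and 0.933 in FL, below 1, whereas the depletion of domain A against the neighbouring domain deepened to 0.575 in HL and 0.577 in FL. Contact of the near part of domain A with domain B stayed above 1, at 1.10 in both libraries. That of the neighbouring domain with domain B turned to 0.692 in HL and 0.680 in FL over the 71.7% of its bin pairs that lie within the length of the segment (1.24 in HL and 1.21 in FL for the same pairs with the expectation of the whole region). For the HoxD-proximal part of C-DOM the values were 0.495 in HL and 0.521 in FL with domain A (95.3% of bin pairs) and 0.421 in HL and 0.436 in FL with domain B, so that their order turned. The block with domain B has only 13.2% of its bin pairs within that length, which stood at 0.925 in HL and 0.981 in FL before.

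The bins at the first border had more of their contacts on the side away from HoxD. For each bin the mean O/E at 100 to 500 kb downstream (away from HoxD) was set over that upstream. This log2 ratio peaked at 1.66 in the bin at 17005 kb in HL, the highest of 372 bins, and at 1.59 in the bin at 17010 kb in FL, the highest of 371 bins. The segment held 73 of the 372 scored bins in HL and 73 of the 371 in FL, and 55 of these 73 were above 0 in each library. A score needs 500 kb of captured chromatin on both sides, so no bin of domain B has one. The median of the 73 scored bins was 0.64 in HL and 0.62 in FL, against -0.16 in HL and -0.13 in FL in the rest. The ratio was thus high along much of the scored part of the segment, which lies in and next to domain A. Of the 20 highest bins, 14 lay in the segment in each library, and 13 of these within 100 kb past the border. The other 6 were elsewhere, and the bin at 15705 kb reached 1.54 in HL and 1.41 in FL, so a high ratio was not particular to this border. The 8 unmasked bins within 20 kb of the border met domain B at 2.15 times expectation in HL and 2.05 in FL (18984 and 18438 read pairs), and the far part of domain A at 1.52 in HL and 1.46 in FL. With the expectation of the segment alone the values were 1.31 in HL and 1.25 in FL for domain B, and 1.23 in HL and 1.19 in FL for the far part of domain A. Toward the neighbouring domain, from about 100 kb away, they fell short of expectation, at 0.688 in HL and 0.716 in FL. High contact with domain B was not limited to these 8 bins and fell off gradually on both sides. Single bins stood at 1.90 in HL and 1.87 in FL at 17035 kb, and at 1.57 and 1.55 at 17100 kb. At 17160 kb the values were 1.33 and 1.34, and before the border, at 16975 kb, 1.61 and 1.58.

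The contact of the 8 border bins was a stripe with steps and not an even rise. In windows of 50 kb, the border bins stood below expectation next to the border on the far side as well (0.785 in HL and 0.783 in FL at 50 to 100 kb), passed 1 at 100 to 150 kb, and reached 2.36 in HL and 2.25 in FL at 350 to 400 kb, the window that holds the second border. The O/E dropped to 1.91 in HL and 1.78 in FL at 450 to 500 kb and stood at 2.27 in HL and 2.10 in FL at 500 to 550 kb, the window of the weak minimum at 17525 kb. From 550 to 850 kb it ran from 1.97 to 2.32 in HL and from 1.87 to 2.21 in FL. The highest value of both libraries was 2.43, in the last window (850 to 870 kb), which lies at the capture end and holds no called border. High values were thus not limited to windows with a border or minimum. In HL the value was higher than in FL in 17 of 17 downstream windows and in 1 of 8 upstream windows (50 to 450 kb away), but the counting intervals lay apart in only 2 of the downstream windows and in 0 of the upstream ones. Without the 3 bins described below it was higher in HL in 14 of 17 downstream and 3 of 8 upstream windows, and 0 intervals lay apart. Windows farther upstream were not in these counts. For all 8 bins, they were lower in HL at 450 to 500 kb (0.743 in HL, 0.795 in FL) and at 500 to 550 kb (0.890 and 0.933). At 550 to 600 kb the value was higher in HL and above expectation in both libraries (1.23 and 1.16). The windows share the same border bins and are not independent.

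**Figure D3:**
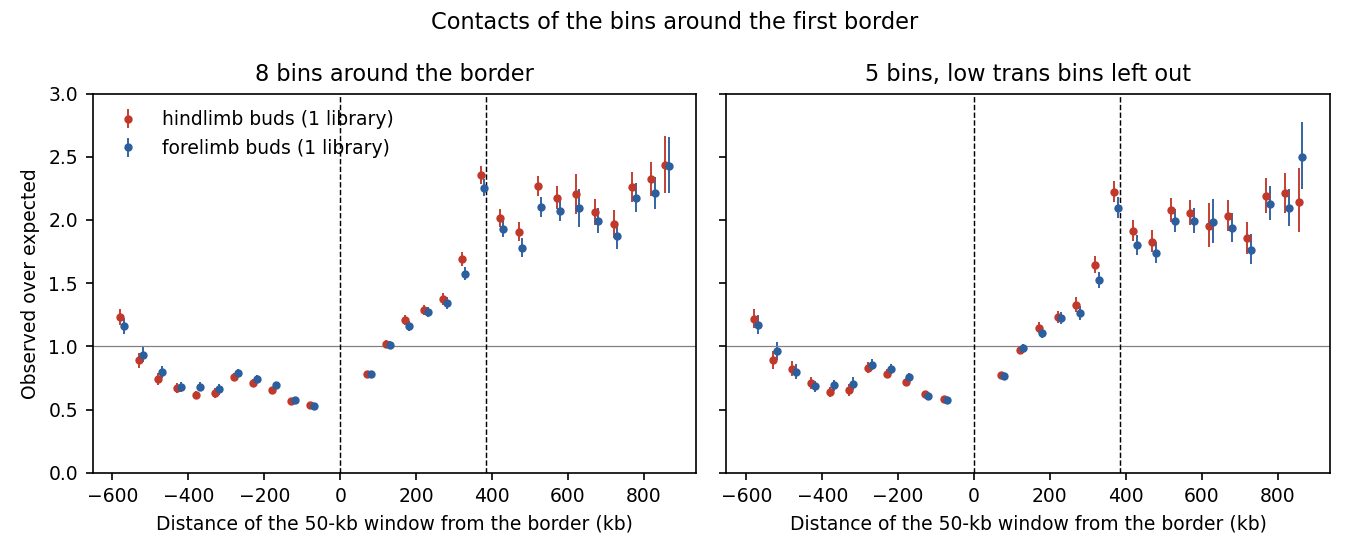
O/E (y axis) of the bins within 20 kb of the border at 17000 kb with windows of 50 kb, against the distance of the window (x axis, kb), for all 8 bins (left) and for 5 bins without those that rarely join other chromosomes (right); points are hindlimb and forelimb buds, 1 library each, with 95% Poisson intervals for counting error. In both panels contact is below expectation in the neighbouring domain (left of 0) and rises to about 2 from the second border (right dashed line) onward.

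Over all of domain B the border bins had a log2 ratio of HL over FL of 0.07, with an interval of 0.03 to 0.09 for the raw counts scaled by distance and a range of 0.04 to 0.09 over lanes. Without distance correction it was 0.01, and -0.0052 when the 3 bins described next were also left out. Toward the neighbouring domain the ratio was -0.06, with an interval of -0.11 to -0.02 and lanes between -0.11 and -0.02. Without these 3 bins, with distance correction, the ratio with domain B was 0.05 (interval 0.01 to 0.08) but lanes ran from -0.05 to 0.09, and that with the neighbouring domain was -0.04 (interval -0.10 to -0.01, lanes -0.08 to -0.01). These differences are a few percent in size and rest on 1 library per tissue.

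Of the 8 border bins, 3 had few ends on other chromosomes, and they are named for that value. In the bins at 16995, 17000 and 17005 kb, 2.77%, 2.48% and 4.50% of the ends in HL and 2.34%, 2.39% and 4.42% in FL joined other chromosomes. The other 5 border bins were at 16.1% to 23.3% in HL and 17.3% to 23.6% in FL. The median over the segment was 24.7% in HL and 25.3% in FL, and only 4 of the 555 unmasked bins of the capture region were under 10% in both libraries; the fourth was at 16360 kb, beside the deepest border. The same bins were poor in pairs with the rest of chromosome 7 outside the capture (1.44% to 3.44% in HL, 1.69% to 3.62% in FL) and carried 6040 to 10429 read pairs in HL and 5756 to 9882 in FL. What lowers these shares was not tested. Without the 3 bins the stripe remained: the other 5 bins met domain B at 2.04 in HL and 1.97 in FL and the neighbouring domain at 0.754 in HL and 0.776 in FL, and the border was called at 16995 kb in both libraries with a prominence of 1.28 in HL and 1.20 in FL.

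The strongest single contacts of the segment began at this border. Among 10-kb bin pairs at least 50 kb apart with at least 60 read pairs in both libraries together, 40 local maxima of O/E lay inside the segment, and 7 of the 8 strongest had an end at 16990 to 17010 kb. The most deeply sequenced was the contact of 17000 kb with 17370 kb, at the second border, with an O/E of 2.99 in HL (292 read pairs) and 2.69 in FL (261 read pairs), which is 1.62 and 1.53 times the mean of the surrounding bins. Next in depth was the contact with 17520 kb, at the weak minimum, with 2.92 in HL (161 read pairs) and 2.45 in FL (130 read pairs). Contacts of the border bins with 17600, 17650, 17690, 17760 and 17840 kb had O/E values of 2.31 to 2.78 in HL and 2.28 to 2.94 in FL, on 50 to 120 read pairs in HL and 56 to 133 in FL. The only other one joined 17110 kb to 17850 kb (2.31 in HL and 2.50 in FL).

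These ranks changed in part with the expectation. With the mean at each distance taken over the segment alone, the contacts of 17000 kb with 17370 kb (mean log2 O/E of both libraries 1.09) and with 17520 kb (0.95) ranked first and second. The next contacts then lay inside domain B, from 17670 kb to 17780 kb (0.83) and to 17850 kb (0.74), starting beside the border of the raw matrix at 17655 kb. Without the 10-kb bins that hold the 3 bins with few pairs on other chromosomes, the contact of the second border remained as that of 17010 kb with 17370 kb (1.31), after that of 17030 kb with 17840 kb (1.37), and a contact with 17520 kb was not among the 8 strongest. With the C-DOM side there were 68 local maxima, and the 5 strongest all ended at 17690 to 17860 kb, near the capture end, with 23 to 45 read pairs in HL and 32 to 49 in FL.

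Between the tissues, contact inside the segment hardly differed. Over all its bin pairs the O/E was 1.27 in HL and in FL, a log2 ratio of HL over FL of 0.0058 (654363 and 625135 read pairs), with lanes between -0.0036 and 0.0066. Within domain A the ratio was 0.014, within domain B -0.0042 and between them 0.0012. The border at 17385 kb scored lower in HL by 0.06 on the log2 scale, and the scores of its lanes did not overlap (-0.50 to -0.47 in HL and -0.45 to -0.39 in FL). By lane the difference ran from -0.03 in lane 1 to -0.11 in lane 4. Lanes read the same library again, so their gap does not measure a difference between tissues. Across this border, contact between the far part of domain A and the first part of domain B had a ratio of -0.03, with an interval of -0.04 to -0.01 and lanes from -0.05 to -0.01. At the border at 17000 kb the difference in score was -0.03 and lanes overlapped (-1.02 to -0.91 in HL and -0.99 to -0.92 in FL).

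A difference of a few percent appeared in contact with C-DOM. The HoxD-proximal part of C-DOM met domain A at 0.869 of expected in HL and 0.910 in FL, a log2 ratio of -0.07 on 41550 and 44566 read pairs. The raw counts scaled by distance gave -0.08, with an interval of -0.10 to -0.06, and single lanes gave -0.09 to -0.05. With domain B, farther away, the same part of C-DOM had a ratio of -0.0021, but its raw counts scaled by distance gave -0.03 (interval -0.05 to -0.0058). Without distance correction the ratio was -0.14 with domain A and -0.17 with domain B. With the domain before domain A, at 16690 to 17000 kb, that part of C-DOM had a ratio of -0.02. Within that part of C-DOM itself the ratio was 0.04. The neighbouring domain met domain A with a ratio of 0.0030 and domain B with a ratio of 0.03 (interval 0.01 to 0.04). Over the whole C-DOM side and the whole segment the ratio was -0.0060. Without the distance correction it was -0.08. Contact at each distance differed between the libraries in the rest of the capture region too, where the log2 ratio of HL over FL was 0.12 at 10 to 20 kb and -0.09 at 640 to 890 kb.

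To look for local differences, the capture region was divided into tiles of 50 by 50 kb with at least 800 read pairs in both libraries together, and a tile was counted as past the fold at an absolute log2 ratio of at least 0.2. Among tiles with no window in the segment 24 of 661 (3.63%) were past it, 10 higher in HL (1.51%) and 14 lower (2.12%). Inside the segment there were 0 of 168, with ratios of -0.10 to 0.12 and a median of 0.00075. With the C-DOM side (windows from 16430 kb) there were 5 of 184 (2.72%), of which 2 were higher and 3 lower in HL, and the median was -0.0098. A further 78 tiles join the segment to windows that start before 16430 kb, mainly at HoxD and in T-DOM (the TAD on the other side of HoxD). Of these, 15 (19.2%) were past the fold, 14 of them higher in HL. They include the window of 16380 to 16430 kb, which lies mostly on the C-DOM side, and whose tiles ran only from -0.10 to 0.13. The window of 15880 to 15930 kb, also included, lies mostly outside T-DOM as the study limited it. The counting interval of the raw ratio left out 0 in 12.5% of the tiles inside the segment and in 13.6% of those with the C-DOM side. The share was 29.5% in the 78 tiles with windows that start before 16430 kb, near the 29.8% of tiles with no window in the segment. The windows of tiles inside the segment are mostly nearer to each other, so the standard deviation over tiles is also given at like distance. Under 200 kb apart it was 0.03 inside the segment and 0.05 with no window in it. At 200 to 400 kb it was 0.05 inside and 0.07 with no window in it, and at 400 to 800 kb 0.05 and 0.09. Read pairs per tile were not matched, and the cause of the smaller spread inside the segment was not tested.

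**Figure D4:**
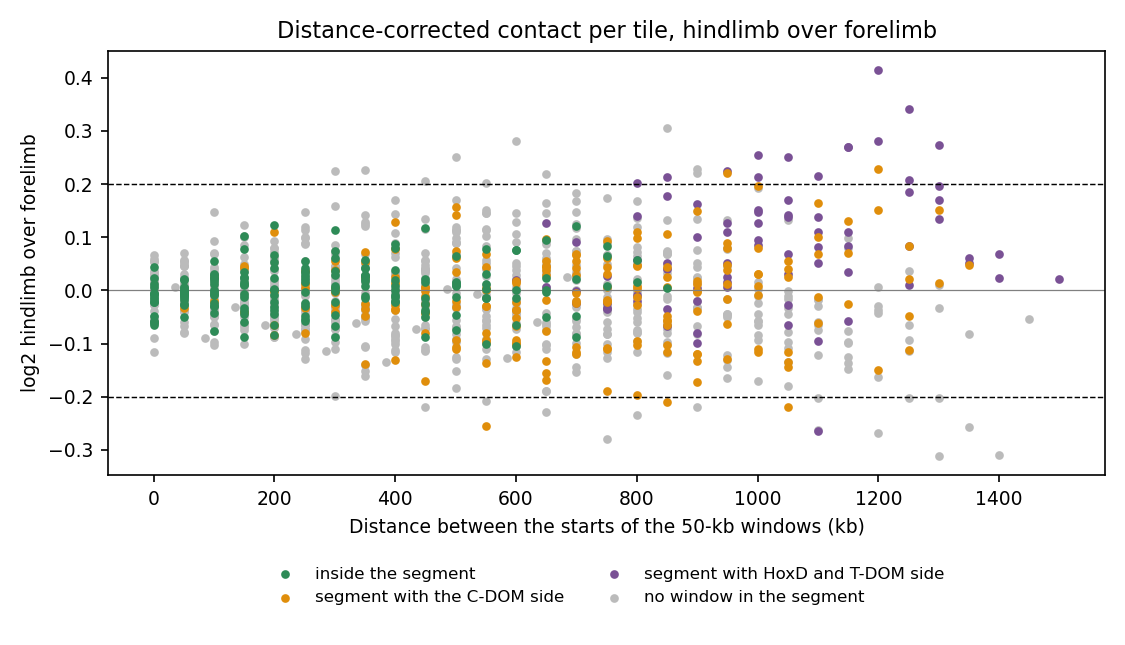
Log2 ratio of hindlimb over forelimb buds (y axis, 1 library each) of distance-corrected contact per tile of 50 by 50 kb, against the distance between the starts of its windows (x axis, kb); dashed lines mark the fold of 0.2. The 168 tiles inside the segment lie between -0.10 and 0.12, and 5 of the 184 tiles with the C-DOM side pass the fold, against 24 of 661 with no window in the segment. Of the 78 tiles of the segment with windows that start before 16430 kb, mainly at HoxD and in T-DOM, 15 also pass it.

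Of the 352 tiles inside the segment or between it and the C-DOM side, the 3 lowest and 3 highest all joined it to the C-DOM side. The lowest was that of 16580 to 16630 kb with 17130 to 17180 kb, in domain A, at 0.606 of expected in HL and 0.722 in FL (891 and 1068 read pairs), a log2 ratio of -0.25 with lanes of -0.36 to -0.12. Next were the tile of 16530 to 16580 kb with 17580 to 17630 kb (-0.22, lanes -0.42 to -0.07) and that of 16580 to 16630 kb with 17430 to 17480 kb (-0.21, lanes -0.37 to -0.08). The highest was the tile of 16580 to 16630 kb with 17780 to 17830 kb (0.23), but its lanes ran from -0.08 to 0.46 on 506 and 498 read pairs. The tiles of 17680 to 17730 kb with 16730 to 16780 kb (0.22, lanes 0.10 to 0.35) and with 16680 to 16730 kb (0.20, lanes 0.11 to 0.32) followed. They were picked by this value, so no more can be read from their size.

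Enhancers of C-DOM were set against the domains one by one, as elements with 10 kb on either side: Prox, CsA, CsB and islands I to V, which carry names of mouse digit enhancers. Contact with domain A was lower for elements nearer the border, as Prox (bins from 16410 to 16440 kb) met domain A at 1.05 of expected in HL and 1.08 in FL, island II (16630 to 16670 kb) at 0.667 in HL and 0.696 in FL, and island I (16685 to 16705 kb) at 0.644 in HL and 0.633 in FL. With domain B the O/E lay between 0.955 and 1.41 in HL and between 0.978 and 1.46 in FL. Of the 9 elements listed, 8 had less contact with domain A in HL than in FL, with log2 ratios of -0.10 to 0.03 and a median of -0.06, and in 7 the counting interval left out 0. Windows of 25 kb along the whole HoxD-proximal part of C-DOM gave 10 of 11 below 0 (90.9%) and 8 of 11 (72.7%) with an interval that left out 0, at a median of -0.06, near the counts and the median of the elements. The lowest ratio belonged to island III (16570 to 16605 kb), at 0.795 in HL and 0.850 in FL (5420 and 5895 read pairs, interval of the raw ratio -0.16 to -0.05). Island I had a ratio of 0.03 (interval -0.05 to 0.19). With domain B the ratios ran from -0.05 to 0.02, and 0 of 9 intervals left out 0, as in 0 of the 11 windows (0%). Both pieces of island IV lie in the same bins, neighbouring elements share bins, and all 9 were set against the same domain A, so these ratios are not independent of each other or of that of the whole block.

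A readout that the choice of the segment did not use is where the captured ends went outside the capture. Of the read pairs with at least 1 end in the segment, 28.8% in HL and 27.5% in FL had both ends in it, 14.5% in HL and 15.1% in FL led to the rest of the capture, 24.7% in HL and 25.2% in FL to the rest of chromosome 7, and 32.0% in HL and 32.2% in FL to other chromosomes. Both domains kept more pairs to themselves in HL, with 18.9% in HL and 17.7% in FL for domain A and 20.3% in HL and 19.0% in FL for domain B, and so did the rest of the capture region (37.7% in HL and 36.5% in FL). Counted per end, 25.0% in HL and 25.4% in FL of the ends in the segment joined other chromosomes, with lanes of 24.4% to 25.7% in HL and 25.0% to 26.0% in FL that overlap. Domain A (25.0% in HL, 25.4% in FL) and domain B (25.3% in HL, 25.8% in FL) hardly differed in this share, and the neighbouring domain was at 23.5% in HL and 23.8% in FL.

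**Figure D5:**
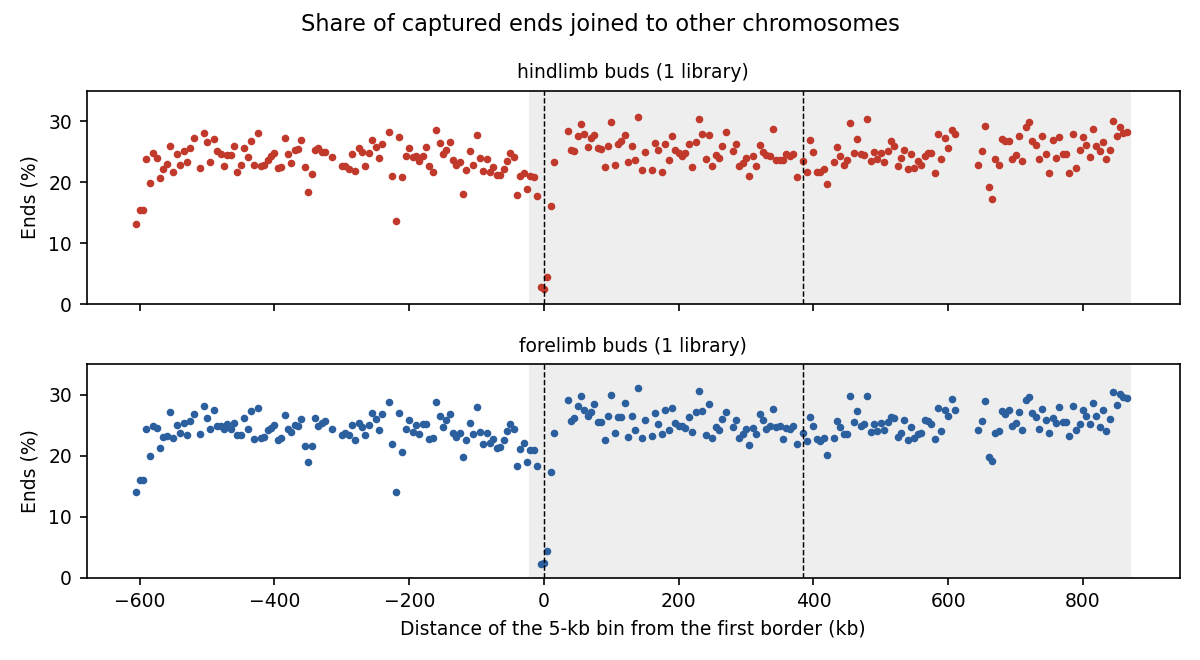
Percent of the captured ends of each unmasked 5-kb bin that joined other chromosomes (y axis) against the distance of the bin from the border at 17000 kb (x axis, kb), in hindlimb (above) and forelimb buds (below), 1 library each; the segment is shaded and dashed lines mark its main borders. Most bins lie near the medians of 24.7% and 25.3%, and the bins at the first border reach down to 2.48% and 2.34%.

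The share varied along the segment. Apart from the bins at the first border, the lowest values were 17.3% in HL and 19.2% in FL, both at 17665 kb, beside the start of the strong contacts within domain B. The highest were 30.7% in HL and 31.1% in FL, both at 17140 kb. The lowest bin at 17000 to 17160 kb (17000 kb), at 17385 to 17525 kb (17420 kb) and at 17525 to 17870 kb (17665 kb) was the same in both tissues, as was the highest at 17000 to 17160 kb (17140 kb), at 17160 to 17385 kb (17230 kb) and at 17525 to 17870 kb (17845 kb). The lowest bin at 17160 to 17385 kb and the highest at 17385 to 17525 kb differed between HL and FL.

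The chromatin just past the capture end gave contacts that entered neither the balancing nor the choice of borders. Per 1000 ends, the last stretch of the segment (17525 to 17870 kb) gave 17.4 pairs in HL and 16.2 in FL with the first 50 kb beyond the end, and 2.02 in HL and 1.98 in FL with 18320 to 18370 kb. With the 50 kb that follow, at 17920 to 17970 kb, the near part of domain A (17000 to 17160 kb) gave 3.65 pairs per 1000 ends in HL and 3.89 in FL (2058 and 2144 read pairs), and the far part, though closer, 3.33 in HL and 3.53 in FL (2923 read pairs in HL). The near part of domain A had the higher value in 7 of 10 windows of 50 kb past the end in each library. With the first 50 kb the parts were closer, at 3.44 in HL and 3.67 in FL for the near part and 3.38 in HL and 3.52 in FL for the far part. The bins within 20 kb of the border at 17000 kb, the farthest of all, gave 3.75 in HL and 3.41 in FL at 17920 to 17970 kb (456 and 407 read pairs), above the far part of domain A in HL and below it in FL. In the other 9 windows they were below it in both libraries. Values per end are not corrected for coverage, and the bins with few pairs outside the capture are among those of the border.

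Genes could not be placed in bins, since the gene table used here is of another assembly (GRCg7b). In that table the first protein-coding genes beyond EVX2, the homeobox gene at the C-DOM end of the HoxD cluster, are LNPK, which encodes a shaper of the endoplasmic reticulum, ATP5G3, a subunit of mitochondrial ATP synthase, and ATF2, a transcription factor. They are followed by CHN1, a regulator of Rac signalling in axons, CHRNA1, the alpha subunit of the muscle acetylcholine receptor, and WIPF1, a partner of the actin regulator WASP. GPR155, SCRN3 and CIR1 come next, and then SP9, a zinc finger factor of the apical ridge of the limb bud, OLA1 and SP3. CDCA7, MAP3K20, RAPGEF4, PPP1R19L, PDK1 and ITGA6, an integrin of epithelia, end the 20 genes read from the table, which also include loci without a gene name. Which of them lie in domain A or domain B on galGal5 is not given here, and no expression was measured in these libraries.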

How the data were processed

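Contacts were measured by CHi-C in whole hindlimb buds and whole forelimb buds of chick embryos at HH20, 1 library each, grouped by the tissue in their labels. After trimming, the authors mapped the mates to galGal5 in HiCUP, which runs Bowtie2, and gave each mate the middle of its DpnII fragment as position. The lists deposited by the authors give both positions of each valid pair and, as a score, the mapping quality of each mate. The raw matrices deposited by the authors hold, for each pair of 5-kb or 10-kb bins, the count of read pairs with both qualities of 30 or more, the limit that gave the deposited totals, and both mates in the capture region. The balanced matrices deposited by the authors hold the same contacts as a signal after cooler balancing, in which every unmasked bin has an equal sum. Balancing removes coverage differences, ties the contacts of a bin to each other, and also acts on bins near a capture end, which lack partners on one side. Matrices of chromosome 2 were not used here.

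Insulation, O/E, tiles and contacts were computed from these matrices in Python (numpy 2.4.6, scipy 1.17.1), and lanes and ends outside the capture from the valid pairs. Matrices rebuilt from the pairs had the deposited totals and differed in 58 (HL) and 56 (FL) bin pairs. Border calling and block ratios were checked on simulated matrices with strong planted domains and a planted block ratio larger than those reported here. The check therefore does not cover weak minima or ratios of a few percent. Shares have exact Clopper-Pearson intervals and counts exact Poisson intervals. The interval of a log2 ratio comes from the exact binomial interval of the raw counts, scaled by the raw mean at each distance. Read pairs are taken as independent there. As there was 1 library per tissue, no test of the tissues was run and no p-value is given. The signed-rank test of the study was not used here, since neighbouring bin pairs are not replicates.

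Regions named are the borders called in both libraries and the domains between them, the 8 strongest contacts inside the segment and the 5 strongest with the C-DOM side, the 3 highest and 3 lowest tiles that do not overlap, the C-DOM elements listed by the study, and the first 20 genes beyond EVX2 in RefSeq (GRCg7b). The weaker minima, the contact at 17670 kb and the bins at the first border were chosen after their values were seen. Members, lists and alternatives were chosen with earlier results of these data known. Alternatives added after the data were seen were the borders from all valid pairs, distance-corrected border scores, and borders, block contacts, ratios and strongest contacts without the bins with under 10% of their ends on other chromosomes. Tiles of the segment with windows that start before 16430 kb were set apart from the background, and windows of 25 kb added beside the elements, after the data were seen. No sequence is shown, as a genome of this build was not used here.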

Additional observations from a re-analysis of the deposited data

How the results depend on the processing

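Both main borders were called in both libraries under every alternative, within 5 kb of 17000 and 17385 kb except with a 200-kb square, division by the mean at each distance and TopDom. Borders called in both libraries numbered 2 in the main setting and 4 with a 50-kb square or a prominence of 0.1. The score at 17000 kb in HL (-0.98) was -0.91 in lane 1, -1.02 in lanes 3 and 4, -0.93 after distance correction, -1.01 with a 50-kb and -0.79 with a 200-kb square, -0.85 in raw counts, -1.03 in 10-kb bins and -1.08 without the bins with few pairs on other chromosomes. Contact of domain A with its neighbour in HL (0.735) was 0.575 with the expectation of the segment, 0.772 in raw counts and 0.729 in 10-kb bins. With the expectation of the segment, contact of domains A and B turned to 0.927 in HL and 0.933 in FL, and that of the far part of domain A with domain B (1.05 in HL, 1.06 in FL) to 0.812 in HL and 0.822 in FL, or to 0.945 in HL and 0.955 in FL in raw counts. The cause of the turn in raw counts was not tested. The log2 ratio of HL over FL between the C-DOM side and the segment (-0.0060) was -0.078 without distance correction, -0.025 in raw counts and 0.0045 in lane 2. Ratios near 0 changed sign: within domain A to -0.0035 in lane 4; between the neighbouring domain and domain A to -0.013 without distance correction, -0.0042 with the expectation of the segment, -0.0036 in raw counts, -0.00035 with all valid pairs and -0.030 in lane 3; inside the segment to -0.0058 in raw counts and -0.0036 in lane 3; within domain B to 0.039 without distance correction and 0.0012 in lane 1; between domains A and B to -0.033 without distance correction, -0.0095 with the expectation of the segment, -0.012 in raw counts, -0.0040 in 10-kb bins, -0.0015 with all valid pairs, -0.0036 without the bins with few pairs on other chromosomes, -0.0023 in lane 2 and -0.011 in lane 3; between the HoxD-proximal part of C-DOM and domain B to 0.0046 in lane 2 and 0.0031 in lane 3; and between the neighbouring domain and domain B to -0.053 without distance correction. The ratio of the HoxD-proximal part of C-DOM with domain A was below 0 under every alternative run (-0.14 to -0.05). Tiles past the fold (5 of 352 with the segment, 1.42%) numbered 9 of 629 at 30 kb (1.43%), against 54 of 1195 with no window in the segment (4.52%). At 100 kb they numbered 0 of 89, against 4 of 222 (1.80%). At a ratio of 0.1 they numbered 58 of 352 (16.5%), against 131 of 661 (19.8%), and at 0.3 they numbered 0, against 3 of 661 (0.454%). The strongest contact inside the segment had a mean log2 O/E of 1.52, and 1.09 with the expectation of the segment. Ends on other chromosomes (25.0% in HL) were 24.4%, 24.9%, 25.3% and 25.7% in lanes 1 to 4. No paired analysis was possible because there was 1 library per tissue. Contacts over 500 kb rest on few read pairs per bin pair, and with no replicate a difference between tissues cannot be told apart from one between preparations.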
